A study of Mus musculus with 83 samples.

Results

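The small RNA of sperm from the cauda epididymis, the tail of the duct where mature sperm are stored, was compared between heat-exposed and sham-housed male mice. The comparison takes the 3 heat and the 3 control sperm libraries of a study with 83 libraries in all, and covers every row of the deposited sperm table. That table has 2052 rows: 1123 microRNA, 467 piRNA, 435 tRNA, 22 snoRNA and 5 rRNA rows. Heat males lived for 7 days in an animal intensive care unit that cycled daily between 8 h of warmth at 35 °C and 16 h at 25 °C, and control males spent the same 7 days under sham conditions at a constant 21 °C. All males were 8 to 12 weeks old and assigned at random, and were killed on the morning after the last day; the labels name no strain. Sperm were lysed with dithiothreitol and proteinase K, and RNA of 18 to 40 nt was cut from a gel before library preparation. The study's design text calls the 3 libraries of a group biological replicates, and the labels do not say how many males contributed to a library. No sperm purity step is described in the sources used here, so RNA from other cells of the duct may be part of the measurement.

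Mature mouse sperm carry few full-length RNAs but a distinct set of small ones. Sperm leave the testis rich in piRNAs, which guide PIWI proteins to silence transposons and cleave transcripts in male germ cells, and they gain tRNA fragments and some microRNAs during epididymal transit, partly from vesicles shed by the duct epithelium. Fragments of tRNA, above all from the start of tRNA-Gly, tRNA-Glu and tRNA-Val, are a known major class of small RNA in cauda sperm and have been studied as carriers of paternal exposure. MicroRNAs act through the seed, the short stretch near their 5′ end that pairs with target transcripts.

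The mature microRNAs on which the values below turn are shown first, with the seed (bases 2 to 8) in capitals, from RefSeq (GRCm38.p6). The table counts each microRNA gene as a whole and does not tell its arms apart, so for each gene the arm usually taken as the main product is printed. The first set is the abundant microRNAs of these libraries, led by miR-10a and miR-10b, which share a seed and differ only by U12A, counted from the 5′ end with the base of miR-10a first.
miR-10a-5p (chr11:96317186-96317208, plus strand): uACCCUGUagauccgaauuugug
miR-10b-5p (chr2:74726074-74726096, plus strand): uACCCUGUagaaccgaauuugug
miR-191-5p (chr9:108568325-108568347, plus strand): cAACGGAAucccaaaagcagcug
miR-22-3p (chr11:75463772-75463793, plus strand): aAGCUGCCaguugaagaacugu
miR-148a-3p (chr6:51269829-51269850, minus strand): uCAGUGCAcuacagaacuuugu
let-7a-5p (let-7a-1 gene, chr13:48538239-48538260, minus strand): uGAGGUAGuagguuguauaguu

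The second set is microRNAs described below as lower in heat, with relatives that share a seed or differ in it by 1 base. The genes Mir200b and Mir429 share the seed AAUACUG with Mir200c, Mir200a and Mir141 share AACACUG, and Mir96 and Mir182 end their seeds differently.
miR-5121 (chr7:45126925-45126945, minus strand): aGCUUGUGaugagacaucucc
miR-378b (chr11:88352839-88352858, plus strand): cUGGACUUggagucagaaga
miR-96-5p (chr6:30169506-30169528, minus strand): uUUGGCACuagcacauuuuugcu
miR-182-5p (chr6:30165962-30165986, minus strand): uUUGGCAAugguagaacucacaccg
miR-741-3p (chrX:66796809-66796831, minus strand): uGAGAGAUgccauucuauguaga
miR-205-5p (chr1:193507503-193507524, minus strand): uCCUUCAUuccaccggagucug
miR-200b-3p (chr4:156055685-156055706, minus strand): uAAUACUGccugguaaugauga
miR-429-3p (chr4:156053916-156053937, minus strand): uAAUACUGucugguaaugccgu
miR-200a-3p (chr4:156054911-156054932, minus strand): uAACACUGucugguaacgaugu
miR-141-3p (chr6:124717917-124717938, minus strand): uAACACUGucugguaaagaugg

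The libraries held 6429221 to 9936108 counts each, and they differed in composition beyond their groups. Values are given below as counts scaled to a library total of 1000000 (CPM), control 1, 2 and 3 first and then heat 1, 2 and 3. Heat 3 was the deepest library and had the highest share of rRNA, at 49.8% of its counts. Heat 1 was the highest library for 307 of 566 tested microRNA rows and 185 of 379 tested tRNA rows, whereas heat 3 was the lowest for 332 and 160 of them. Control 2 was the lowest library for 314 of 457 tested piRNA rows, and heat 2 the highest for 237. Within a class the libraries ordered the more abundant rows much alike. Spearman's rho between any 2 of the 6 libraries was 0.843 to 0.9498 over 344 microRNA rows, 0.848 to 0.971 over 309 tRNA rows and 0.921 to 0.990 over 457 piRNA rows. These rows were kept by a cut on their mean level within the class, and rho is given as a description over rows that share a library.

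All 3 heat libraries held a smaller share of tRNA counts than all 3 controls. Rows of tRNA took 46.1%, 59.5% and 53.3% of the counts in the control libraries and 44.1%, 42.3% and 32.6% in the heat libraries, a mean of 52.9% ± 6.71 against 39.7% ± 6.21 (SD, n = 3 each). Control 1 and heat 1 were close to each other. The share of rRNA was 24.6%, 26.1% and 27.2% in control and 29.2%, 28.8% and 49.8% in heat, so all heat libraries lay above all controls. An exact two-sided permutation test of 3 against 3 libraries cannot give a p below 0.1, and both classes reached it (p = 0.1, adjusted over the 4 classes 0.2).

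MicroRNA and piRNA shares overlapped between the groups. MicroRNA rows held 20.0%, 10.6% and 12.3% of control counts and 15.1%, 11.3% and 12.1% of heat counts (exact permutation p = 0.8). Rows of piRNA held 9.42%, 3.91% and 7.16% of control counts and 11.5%, 17.7% and 5.56% of heat counts (exact permutation p = 0.3). The widest interval of a share from counting error alone was 0.0386 points either way (95% Wilson), far less than the spread between libraries. All 22 rows of the snoRNA class, which include spliceosomal U1 and U2 and other small nuclear RNAs that every cell uses, are listed at 0 in every library, so the zeros may be rows that were not counted, and nothing is read from them.

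**Figure D1:**
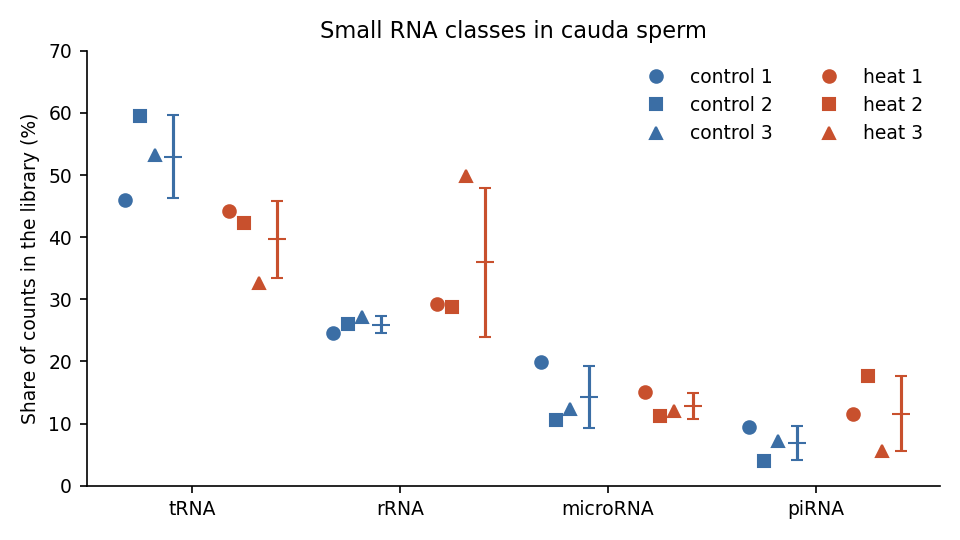
Share of each library's counts in the 4 classes with counts; points are libraries and the bars beside them show the mean and SD of 3. The tRNA share of the heat libraries (32.6% to 44.1%) lies below that of the controls (46.1% to 59.5%), and heat 3 has an rRNA share of 49.8%.

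The shares of a library move against each other, so ratios between classes were compared too. The ratio of tRNA to rRNA counts was 1.88, 2.28 and 1.96 in control and 1.51, 1.47 and 0.654 in heat, without overlap. The ratio of tRNA to microRNA counts was 2.31, 5.62 and 4.32 in control and 2.91, 3.75 and 2.70 in heat, and the groups overlapped. With rRNA rows left out of the total, tRNA held 71.6% ± 9.79 of control and 62.2% ± 2.77 of heat counts, and the groups overlapped (exact permutation p = 0.3). With 1 row kept for each tRNA anticodon, microRNA name and piRNA locus, the tRNA share was 19.0% ± 3.73 in control and 12.4% ± 3.28 in heat and the heat libraries again lay below the controls, a mean difference of -6.59 points. The rRNA shares then differed by 7.66 points on average, more than those of tRNA, and overlapped.

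Of the 2052 rows, 1407 passed edgeR's filter on low counts and were tested for heat against control (quasi-likelihood test, TMM scaling, Benjamini-Hochberg adjustment over all tested rows). No row was called at an adjusted p of 0.05, a share of 0.0%, and the smallest adjusted p was 0.476. At an unadjusted p of 0.05, 128 rows (9.1%) passed, 106 of them (7.53%) higher and 22 (1.56%) lower in heat. DESeq2 and limma-voom called 0 rows as well, with 144 (10.2%) and 75 (5.33%) at an unadjusted p of 0.05. All heat libraries lay above all controls in CPM for 17 rows (1.21%) and below them for 55 (3.91%), of which 33 were tRNA and 21 microRNA rows. After counts were summed by tRNA anticodon, microRNA name and piRNA locus, 802 groups were tested and 0 (0.0%) were called, with a smallest adjusted p of 0.475. At an unadjusted p of 0.05, 83 groups (10.3%) passed, 74 (9.23%) higher and 9 (1.12%) lower in heat, and DESeq2 and limma-voom had 0 called and 91 (11.3%) and 40 (4.99%) at that threshold. All heat libraries lay above all controls for 9 groups (1.12%) and below them for 24 (2.99%). The values that follow are therefore described, with their errors, as differences that did not pass the test.

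The median direction of the rows differed between classes, and rows within a class did not all share it. The median log2 fold change (heat over control, TMM scale) was -0.27 over 566 microRNA rows, 0.14 over 379 tRNA rows, 0.36 over 457 piRNA rows and 0.55 over the 5 rRNA rows, beside 0.03 over all tested rows. Of the 128 rows at an unadjusted p of 0.05, 93 were piRNA rows, all higher in heat. That tally depends on the scaling: the piRNA rows at this threshold were 35 higher and 4 lower with rRNA rows left out, 53 and 7 under a stricter filter on counts, and 12 and 23 with piRNA rows fitted alone. With the rRNA rows left out of the fit and its library totals, the rows at an unadjusted p of 0.05 were 42 higher and 38 lower in heat, with limma-voom 52 and 23. The medians also depend on which classes enter the scaling: with microRNA rows fitted alone their median was 0.07, and with piRNA rows fitted alone theirs was -0.13. With tRNA rows fitted alone the tRNA median was 0.19. A median over tRNA rows weighs rare and abundant rows alike, whereas the tRNA share of counts was lower in every heat library.

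The microRNA repertoire was held by few genes. The 10 most abundant microRNA rows took 61.0% to 66.5% of microRNA counts in every library. Mir10a, which lies within the Hoxb gene cluster, was counted at 38976, 21005 and 27314 CPM in control and 29482, 25067 and 26851 CPM in heat. Mir10b, its relative within the Hoxd cluster, stood at 30406, 18417 and 23779.6 CPM in control and 22656, 20261 and 22789 CPM in heat. The 2 genes together held 34.7%, 37.3% and 41.4% of microRNA counts in control and 34.4%, 40.2% and 41.1% in heat. Their log2 fold changes were -0.01 (SE 0.48) and -0.05 (SE 0.48), with overlapping groups, and with microRNA rows fitted alone they were 0.30 and 0.26.

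Next in abundance came Mir191, Mir22 and Mir34c. Mir191 was counted at 12713, 5019.9 and 5285 CPM in control and 9444, 5949.9 and 5361 CPM in heat, with control 1 and heat 1 the highest of their groups. Mir22 stood at 10641, 5543 and 5829 CPM in control and 10041, 5653 and 5302 CPM in heat, with the same libraries highest. Mir34c, a member of the miR-34 and miR-449 family that marks late spermatogenic cells and sperm, was counted at 8575, 4227 and 5121 CPM in control and 5874, 5078 and 5099.7 CPM in heat, or 4.15% ± 0.148 of control and 4.20% ± 0.314 of heat microRNA counts (SD, n = 3 each).

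Mir30a, Mir25, Mir148a, Mir141 and Mirlet7a-2 complete the 10. Over the 10 rows the log2 fold changes ran from -0.32 to -0.01 with SEs of 0.46 to 0.48, so differences of the size of these errors were not detectable for them in this design. Of these 10, Mir148a alone had heat libraries below all controls, at 3468, 2852 and 3481 CPM in control and 2636, 2138 and 2755 CPM in heat, with a log2 fold change that was the lowest of the 10 and an unadjusted p of 0.51. As a share of microRNA counts Mir148a overlapped, at 1.737%, 2.697% and 2.819% in control and 1.740%, 1.897% and 2.281% in heat. The other 9 overlapped in CPM.

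The microRNA rows with the smallest p-values were lower in heat and mostly of modest abundance. Mir5121 stood at 118, 124 and 179 CPM in control and 87.0, 43.6 and 41.7 CPM in heat. Its groups did not overlap, and its log2 fold change was -1.42 (SE 0.42, unadjusted p = 0.00201, adjusted p = 0.476). Mir378b, whose mature form resembles the metabolic regulator miR-378a, was counted at 38.2, 37.5 and 41.1 CPM in control and 16.2, 19.9 and 14.2 CPM in heat, without overlap and with the tightest control values of this set. Its log2 fold change was -1.22 (SE 0.38, adjusted p = 0.476). Mir6931 was near the bottom of detection, at 2.58, 5.03 and 1.71 CPM in control and 1.84, 0.513 and 0.403 CPM in heat, and overlapped (log2 fold change -2.11, SE 0.71). The row of Mir378a was at 0 in all 6 libraries. It may be a row that was not counted, so nothing is read from this zero.

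Mir96, part of the miR-183 cluster that is expressed in sensory and other epithelia, was counted at 34.2, 14.1 and 14.0 CPM in control and 12.9, 5.38 and 7.05 CPM in heat. All heat libraries lay below all controls (log2 fold change -1.28, SE 0.38, adjusted p = 0.476). Its cluster neighbour Mir182, with the related seed shown above, was far more abundant, at 2714, 1434 and 1890.0 CPM in control and 1868, 1442 and 1283 CPM in heat, and overlapped. Mir741, of the X-linked cluster expressed in the testis, was at 941, 312 and 179 CPM in control and 406, 125 and 75.8 CPM in heat. The heat 1 library lay above 2 of the controls, so the groups overlapped despite a log2 fold change of -1.38 (SE 0.50, adjusted p = 0.476).

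The 4 microRNA rows with the smallest p among those higher in heat had overlapping groups. Mir3963 stood at 9.17, 6.25 and 9.64 CPM in control and 98.5, 6.41 and 1.21 CPM in heat, so heat 1 alone was high and heat 3 was the lowest of the 6. Its log2 fold change was 1.54 (SE 0.63, adjusted p = 0.476), and without heat 1 it was -0.96. Mir7234, at 25.2, 9.32 and 20.8 CPM in control and 27.5, 55.5 and 20.7 CPM in heat, was highest in heat 2 (log2 fold change 1.01, SE 0.40, and 0.49 without heat 2). Mir7217, at 14.2, 3.92 and 4.51 CPM in control and 11.4, 28.4 and 4.53 CPM in heat, was also highest in heat 2 (log2 fold change 1.06, SE 0.48, and 0.04 without heat 2). Mir468 stood at 6.20, 4.17 and 6.07 CPM in control and 11.6, 18.3 and 3.93 CPM in heat, with heat 1 and heat 2 above all controls and heat 3 below them (log2 fold change 0.98, SE 0.45, and 0.30 without heat 2). Heat 2 is the library in which most piRNA rows were highest, and the part of that library in these values was not tested.

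**Figure D2:**
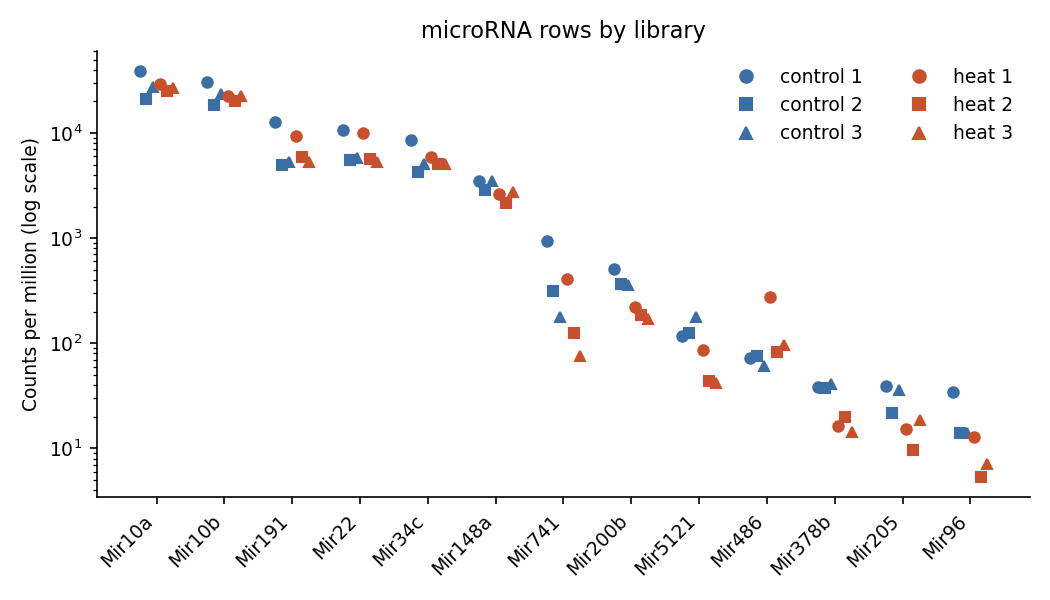
Level in CPM (log axis) of 13 microRNA rows in each of the 6 libraries, ordered roughly from abundant to rare. Mir10a and Mir10b overlap between groups at 18417 to 38976 CPM, while Mir148a, Mir5121, Mir378b, Mir205, Mir200b and Mir96 have all heat libraries below all controls.

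MicroRNA families were described by their counts of rows higher and lower in heat, with 0 rows called in each. Over all tested microRNA rows 407 of 566 (71.9%) were lower, beside 48.2% of all tested rows. The let-7 family, which promotes differentiation, had 5 tested rows higher and 9 lower (median log2 fold change -0.01). The miR-10, miR-99, miR-100 and miR-125 group had 0 higher and 8 lower (median -0.55). Its rarer members differed more than Mir10a and Mir10b: Mir99a was at 131, 64.1 and 57.1 CPM in control and 56.5, 39.2 and 48.0 CPM in heat, just without overlap (log2 fold change -0.71, SE 0.41), and Mir100 had a log2 fold change of -0.86 (SE 0.43) with overlapping groups.

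Other families had mixed or small values. The miR-30 family had 0 rows higher and 6 lower (median -0.22), and the miR-17 to miR-92 clusters, known for promoting proliferation, had 3 higher and 9 lower (median -0.39). The miR-34 and miR-449 family, whose joint loss impairs spermatogenesis and cilia in mice, had 2 higher and 4 lower (median -0.04). The miR-290 to miR-302 clusters of the early embryo were near absent from sperm, with a summed level of 10.1 to 45.2 CPM over the 6 libraries, and 5 of their 14 rows were tested (3 higher, 2 lower). These directions depend on the scaling: with microRNA rows fitted alone the medians were 0.31 for let-7, -0.22 for the miR-10 group, 0.09 for miR-30, 0.26 for miR-34 and miR-449 and -0.06 for the miR-17 to miR-92 clusters, and with rRNA rows left out that of the miR-290 to miR-302 clusters turned to -0.01.

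The X-linked testis clusters had 9 tested rows higher and 12 lower (median -0.15, and 0.23 with microRNA rows fitted alone), and their summed level was 13176, 5910 and 6161 CPM in control and 11179, 6990.2 and 6471 CPM in heat. Over all microRNA rows that RefSeq places on the X chromosome, a split chosen after the values were seen, 26 of 44 tested rows (59.1%) were lower, beside 319 of 427 autosomal rows (74.7%). The X-chromosomal share of microRNA counts was 7.73%, 6.75% and 6.12% in control and 8.58%, 7.39% and 6.69% in heat, and the groups overlapped.

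MicroRNAs taken as markers of the duct epithelium were the list of other cell types with the most counts. Its 10 rows all had lower fitted values in heat (median log2 fold change -0.44; 2 higher and 8 lower, median -0.11, with microRNA rows fitted alone), and 3 of them, Mir96, Mir205 and Mir200b, were lower at an unadjusted p of 0.05, beside 1.56% of all tested rows and 17 of 566 microRNA rows in that direction, and beside 71.9% of microRNA rows with lower fitted values. Mir200b, of the family that maintains the epithelial state, stood at 513, 363 and 358 CPM in control and 224, 187 and 169 CPM in heat. All heat libraries lay below all controls in CPM and also as a share of microRNA counts, at 0.257%, 0.343% and 0.290% in control and 0.148%, 0.166% and 0.140% in heat (log2 fold change -1.07, SE 0.44, adjusted p = 0.476). Mir205, of basal and stratified epithelia, was at 39.3, 21.8 and 36.1 CPM in control and 15.1, 9.61 and 18.7 CPM in heat, also without overlap (log2 fold change -1.01, SE 0.40).

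The relatives of Mir200b with the same or a near seed differed less. Mir429, on the same chromosome and with the seed of Mir200b, was at 1241, 1053 and 781 CPM in control and 897, 729 and 696 CPM in heat and overlapped. Mir200c, the other gene with that seed, was at 102, 56.5 and 62.2 CPM in control and 43.4, 37.2 and 61.5 CPM in heat. Mir200a was at 453, 284 and 259 CPM in control and 234, 185 and 222 CPM in heat, below all controls. Summed over the 10 epithelial rows, the level was 10316, 5886 and 5935 CPM in control and 6669, 4665 and 5379 CPM in heat, with overlap, and as a share of microRNA counts it was 5.17%, 5.57% and 4.81% in control and 4.40%, 4.14% and 4.45% in heat, without overlap. RNA of whole sperm preparations does not separate the content of sperm from that of epithelial cells or vesicles. Fewer such cells or vesicles and less RNA in each cannot be told apart either. No row of this list was called.

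Markers of other cells summed to less than the epithelial list in every library. Muscle microRNAs summed to 1.31 to 11.7 CPM over the 6 libraries, with Mir1a-1 at no more than 0.706 CPM. The 2 tested muscle rows had lower fitted values in heat (median log2 fold change -0.64). Endothelial microRNAs summed to 7.82 to 31.3 CPM, and Mir126a, which defines the list, had a log2 fold change of -1.06 (SE 0.43) with overlapping groups. Connective tissue and smooth muscle microRNAs summed to 911 to 1435 CPM in control and 836 to 1555 CPM in heat, with 2 tested rows higher and 4 lower (4 and 2 with microRNA rows fitted alone). Blood cell microRNAs summed to 312, 222 and 173 CPM in control and 548, 209.9 and 213 CPM in heat. Among them Mir486, abundant in red cells, stood at 72.6, 75.8 and 60.5 CPM in control and 274, 83.0 and 96.5 CPM in heat, above all controls in each heat library and far higher in heat 1 (log2 fold change 0.89, SE 0.43, adjusted p = 0.476). Mir3107, whose gene lies inside that of Mir486, had nearly the same values and is not a separate measurement. Mir142, of blood cells in general, was at 229, 133 and 102 CPM in control and 255, 120.3 and 103 CPM in heat and overlapped. Mir451a, another red cell microRNA, was at 5.81, 8.71 and 5.91 CPM in control and 9.75, 3.20 and 10.9 CPM in heat and overlapped, and Mir223, of myeloid cells, was at no more than 2.68 CPM. The part of these cells in the other microRNA values was not tested.

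Within the tRNA class, most anticodon groups overlapped between heat and control in their share of tRNA counts. The 7 anticodon groups with at least 1% of tRNA counts were GlyGCC, ValCAC, GluCTC, ValAAC, GlyCCC, GluTTC and LysCTT. GlyGCC, the most abundant, took 48.5%, 52.5% and 52.3% of tRNA counts in control and 51.0%, 47.7% and 52.2% in heat. ValCAC took 18.9%, 18.4% and 16.0% in control and 16.3%, 20.4% and 13.7% in heat. GluCTC took 11.1%, 10.6% and 12.5% in control and 9.68%, 10.0% and 15.0% in heat, where heat 3 alone was high.

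Of the 7 groups, GlyCCC was the one without overlap, at 4.96%, 5.10% and 5.10% in control and 5.38%, 5.29% and 5.32% in heat, a difference of 0.28 percentage points (exact permutation p = 0.1, adjusted over the 7 groups 0.7). Its sum includes the copies chr3.trna287-GlyCCC and chr3.trna755-GlyCCC, which varied widely between libraries. In heat 2 they stood at 1223 and 1190 CPM, of 22349 CPM for the group, and in control 2 at 33.0 and 29.3 CPM. Without these copies heat 2 had a lower share than every control, so the lack of overlap rested on them. As a share of all counts GlyCCC was lower in heat on average, at 2.12% ± 0.338 against 2.68% ± 0.376 in control (SD, n = 3 each), and overlapped. GluTTC took 2.03%, 1.28% and 1.69% in control and 3.02%, 1.59% and 2.30% in heat. LysCTT took 1.98%, 1.51% and 2.12% in control and 1.71%, 1.55% and 1.73% in heat. The other adjusted p-values over the 7 groups were 0.875 to 1.

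By amino acid the tested rows split by abundance, with 0 rows called. Rows of the 4 most abundant amino acids were mostly lower in heat: tRNA-Gly had 10 higher and 19 lower (median log2 fold change -0.49), tRNA-Glu 5 and 14 (median -0.13), tRNA-Val 1 and 19 (median -0.55) and tRNA-Lys 2 and 18 (median -0.64). Rows of many rarer tRNAs were mostly higher: tRNA-Ala had 33 higher and 2 lower (median 0.28), tRNA-Leu 25 and 1 (median 0.27), tRNA-Gln 15 and 0 (median 0.56), tRNA-Asn 12 and 0 (median 0.65), tRNA-His 11 and 0 (median 0.21) and tRNA-Thr 14 and 1 (median 0.40). The same held for tRNA-Ser (19 and 3), tRNA-Arg (17 and 3), tRNA-Pro (13 and 3), tRNA-Asp (12 and 4), tRNA-Ile (9 and 2), tRNA-Phe (7 and 0), tRNA-Trp (7 and 1) and tRNA-Cys (34 and 14), but tRNA-Met had 4 higher and 14 lower and tRNA-Tyr 0 and 9. The medians of tRNA-Cys and tRNA-Asp turned to -0.01 and -0.04 with rRNA rows left out, and those of tRNA-Ser and tRNA-Asp to -0.07 and -0.08 with scaling by library total. Over all 379 tested tRNA rows 251 (66.2%) were higher and 128 lower, with 7 higher and 5 lower at an unadjusted p of 0.05. With rRNA rows left out 53.4% were higher (5 and 12 at that p), and under the stricter filter 44.4% were (4 and 12), with a median of -0.03. With tRNA rows fitted alone more rows were higher than in the fit over all classes: 69.8% of 378 rows (28 higher and 7 lower at that p). Their median was then 0.19, and 0 rows were called. Copies of 1 tRNA have near-identical sequences, so these counts of rows are not counts of separate measurements.

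Summed over all rows of an amino acid, in CPM of all counts, tRNA-Glu and tRNA-Lys were lower in every heat library. The sums of tRNA-Gly and tRNA-Val overlapped between the groups. These sums move with the tRNA share of a library, which was lower in every heat library. As shares of tRNA counts, GluCTC, GluTTC and LysCTT each overlapped, as given above. Counts of tRNA-Glu summed to 60601, 70946 and 75821 CPM in control and 56075, 49048 and 56261 CPM in heat, all heat libraries below all controls. Counts of tRNA-Lys summed to 13248, 14803 and 15539 CPM in control and 11117, 9189.6 and 7964 CPM in heat, also without overlap. Those of tRNA-His summed to 2231, 2487 and 5824 CPM in control and 7241, 4487 and 2241 CPM in heat, where heat 1 and control 3 were high and the groups overlapped.

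The 14 copies of GlyGCC fell into levels that did not move together. A set of 10 copies was counted at nearly the same high level, such as chr8.trna892-GlyGCC at 21596, 30335 and 26835 CPM in control and 22257, 19533 and 16491 CPM in heat (log2 fold change -0.52, SE 0.50). A set of 3 copies on chromosome 1 was counted at a lower level: chr1.trna704-GlyGCC stood at 2514, 3657 and 3159 CPM in control and 1163, 1642 and 1175 CPM in heat. All heat libraries lay below all controls, with a log2 fold change of -1.26 (SE 0.50, unadjusted p = 0.0172, adjusted p = 0.476). The copies chr1.trna702-GlyGCC and chr1.trna706-GlyGCC had log2 fold changes of -1.25 (SE 0.50) and -1.24 (SE 0.50) and values so close to it that the 3 are best read as 1 measurement.

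Set against the 10 high copies, the 3 copies had 3.56%, 3.66% and 3.50% of their counts in control and 1.60%, 2.53% and 2.15% in heat. The control libraries lay close together and all heat libraries lay below them. This ratio was formed after the values were seen and carries no test. Since it is taken within 1 anticodon of each library, it does not move with the share of other classes.

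Copies of GlyCCC varied more. The leading copy, chr3.trna282-GlyCCC, was counted at 20823, 29199 and 25459 CPM in control and 21522, 19173 and 16534 CPM in heat. The copy chr4.trna67-GlyCCC stood at 524, 416 and 647 CPM in control and 339.9, 226 and 249.6 CPM in heat, all heat libraries below all controls (log2 fold change -0.96, SE 0.45), and chr3.trna752-GlyCCC tracked it closely. A further pair went the other way on average. The copy chr3.trna287-GlyCCC was counted at 271, 33.0 and 32.5 CPM in control and 594, 1223 and 19.4 CPM in heat.

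Control 1, heat 1 and heat 2 were high for that pair, and control 2, control 3 and heat 3 low, so the groups overlapped. The log2 fold change of chr3.trna287-GlyCCC was 2.57 (SE 0.76, unadjusted p = 0.00189, adjusted p = 0.476), and that of chr3.trna755-GlyCCC, which follows it in every library, was 2.52 (SE 0.77). Both rows passed an adjusted p of 0.05 when heat 1 or heat 3 was left out, when rows were scaled by library total, and under the stricter count filter.

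**Figure D3:**
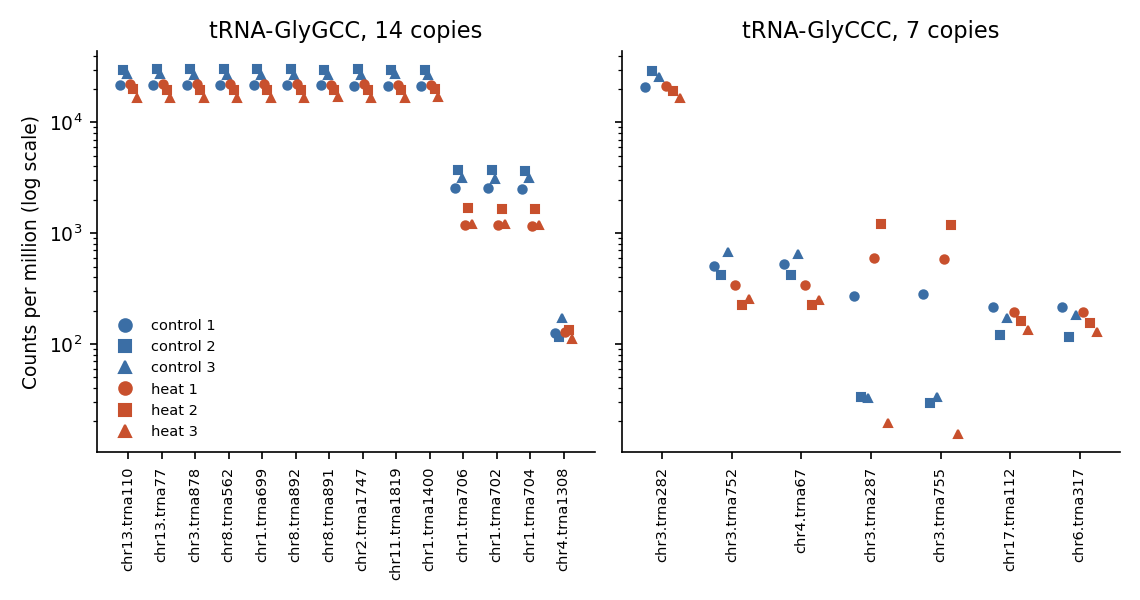
Level in CPM (log axis) of each gene copy of tRNA-GlyGCC (left) and tRNA-GlyCCC (right), with the 6 libraries side by side within a copy. The 10 high GlyGCC copies overlap between groups, the 3 copies chr1.trna706, chr1.trna702 and chr1.trna704 have all heat libraries below all controls, and chr3.trna287 and chr3.trna755 of GlyCCC range from 15.4 to 1223 CPM.

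The other tRNA rows with the smallest p among those higher in heat were rare. The copy chr13.trna104-ThrAGT stood at 14.7, 11.3 and 16.3 CPM in control and 43.5, 44.0 and 13.9 CPM in heat, with heat 1 and heat 2 high and heat 3 within the control range (log2 fold change 1.14, SE 0.37). The copy chrX.trna321-ArgCCT was at 7.23, 6.38 and 8.40 CPM in control and 33.3, 11.5 and 8.96 CPM in heat, all heat libraries above all controls and heat 1 far above the other 5 (log2 fold change 1.06, SE 0.39). Copies of abundant tRNAs were chosen after their values were seen as examples of their level. Of LysCTT, chr3.trna292-LysCTT was at 945, 992 and 1244 CPM in control and 820.2, 696 and 590.0 CPM in heat, below all controls (log2 fold change -0.64, SE 0.46). Of ValCAC, chr13.trna91-ValCAC was at 17179, 21844 and 16722 CPM in control and 14241, 16795 and 8743 CPM in heat and overlapped (log2 fold change -0.59, SE 0.49). Of the tRNA-Lys rows, chr1.trna1192-LysTTT had the smallest p, at 679, 971 and 718 CPM in control and 568, 445 and 364 CPM in heat, all heat libraries below all controls (unadjusted p = 0.062).

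How far copies repeat each other was measured by the variance of their counts over the mean within a library, which is about 1 where copies differ by counting error only. It was 1.02 over 8 copies of HisGTG, 1.35 over 7 copies of LysCTT, 0.253 for Mirlet7a-1 and Mirlet7a-2 and 1.15 for Mir16-1 and Mir16-2, each averaged over the 6 libraries. The sets are 8 of 10 HisGTG and 7 of 19 LysCTT copies and do not cover every copy. The value was 2.08 over the 3 chromosome 1 copies of GlyGCC and 6.33 over 5 high copies of ValCAC. It was 9.36 over the 10 high copies of GlyGCC, at a mean of 176815 counts per copy. Copies with a value near 1 carry 1 measurement and not several, whereas the high GlyGCC and ValCAC copies differed by more than counting error. The class shares sum over all copies listed. Whether a read that matches several copies was split between them or counted in each is not given in these sources.

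The piRNA rows are named in 2 ways, by a chromosome band or by a gene, and the 2 kinds differed in level and in direction. Those named by a band are 217 rows of 100 loci, and those named by a gene are 250 rows of 114 loci. Band-named rows summed to 81712, 30949.6 and 56331 CPM in control and 97867, 162350.0 and 47024 CPM in heat. Heat 2 was the highest and control 2 the lowest, and heat 3 lay below controls 1 and 3. Gene-named rows summed to 12484, 8152 and 15309.8 CPM in control and 16779, 14582 and 8600.4 CPM in heat.

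Of the band-named rows, 211 had higher and 6 lower fitted values in heat (median log2 fold change 0.90), and 87 were at an unadjusted p of 0.05. Of 240 tested gene-named rows 103 were higher and 137 lower (median -0.02), and 6 were at that threshold. With piRNA rows fitted alone the medians were 0.26 for band-named and -0.48 for gene-named rows, and with scaling by library total that of gene-named rows was 0.02. The split was chosen after the values were seen and carries no test, and the table gives no transcript lengths, so levels are not compared per length. Band-named rows held 86.7%, 79.2% and 78.6% of piRNA counts in control and 85.4%, 91.8% and 84.5% in heat, and the groups overlapped.

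The 93 piRNA rows at an unadjusted p of 0.05 (20.4% of the class, beside 7.53% of all rows in that direction) followed 2 libraries. They came from 56 loci. Heat 2 was the highest library for 92 of them and control 2 the lowest for all 93, heat 3 lay below control 1 for 91, and 2 had groups that did not overlap. Without heat 2, 2 piRNA rows higher in heat remained at that threshold, and without control 2 there were 6.

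The 4 most abundant loci by counts had the same profile. The locus 2-qE1-35981 summed to 4699.9, 1744 and 3112 CPM in control and 5452, 9223 and 2771 CPM in heat. The locus 18-qE1-36451, with the single transcript 18-qE1-36451.1, was counted at 3648, 1381 and 2517 CPM in control and 4391, 7869.9 and 2161 CPM in heat (log2 fold change 0.99, SE 0.50, adjusted p = 0.476). The transcript 9-qC-31469.1 stood at 3441, 1257 and 2358 CPM in control and 4233, 7193 and 2019 CPM in heat (log2 fold change 0.99, SE 0.49). The locus 17-qA3.3-27363 was at 3241, 1182 and 2004 CPM in control and 3904, 6355 and 1803 CPM in heat. In all 4, heat 2 was the highest and control 2 the lowest library, and heat 3 lay below controls 1 and 3.

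The smallest p-values of the class belonged to less abundant transcripts. The transcript 14-qA3-284.1 stood at 36.3, 14.5 and 25.8 CPM in control and 49.3, 193 and 22.5 CPM in heat, with a log2 fold change of 1.86 (SE 0.52, unadjusted p = 0.00115, adjusted p = 0.476). Heat 2 alone was far above the rest, and heat 3 lay below 2 of the controls. The transcript 1-qD-2017.1 was at 80.8, 23.0 and 49.8 CPM in control and 129, 263 and 38.7 CPM in heat (log2 fold change 1.54, SE 0.49), and 17-qC-935.3 at 10.7, 4.17 and 5.13 CPM in control and 21.2, 25.8 and 7.05 CPM in heat (log2 fold change 1.42, SE 0.41), both with overlap. The transcript 17-qC-935.1 of the latter locus had a log2 fold change of 1.37 (SE 0.41). After counts were summed by locus, 10-qC1-117 was the one of the 5 groups with the smallest p among those higher in heat that did not overlap, at 16.3, 13.0 and 18.8 CPM in control and 26.8, 47.4 and 25.9 CPM in heat (log2 fold change 1.20, SE 0.44, adjusted p = 0.475). The others were 17-qC-935 (log2 fold change 1.40, SE 0.44), 1-qD-2017 (1.42, SE 0.51), 8-qA2-343 (1.26, SE 0.44) and 1-qE3-706 (1.24, SE 0.45).

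On the lower side, the 4 piRNA rows with the smallest p were the 4 transcripts of 1 gene-named locus, Mgll. The transcript pi-Mgll.3 stood at 64.8, 35.3 and 125 CPM in control and 58.3, 48.2 and 25.2 CPM in heat, where control 3 was high and heat 3 low (log2 fold change -0.82, SE 0.42, unadjusted p = 0.0575). No piRNA row was lower in heat at an unadjusted p of 0.05 in the fit over all classes; with rRNA rows left out 4 were, under the stricter filter 7 and with piRNA rows fitted alone 23.

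**Figure D4:**
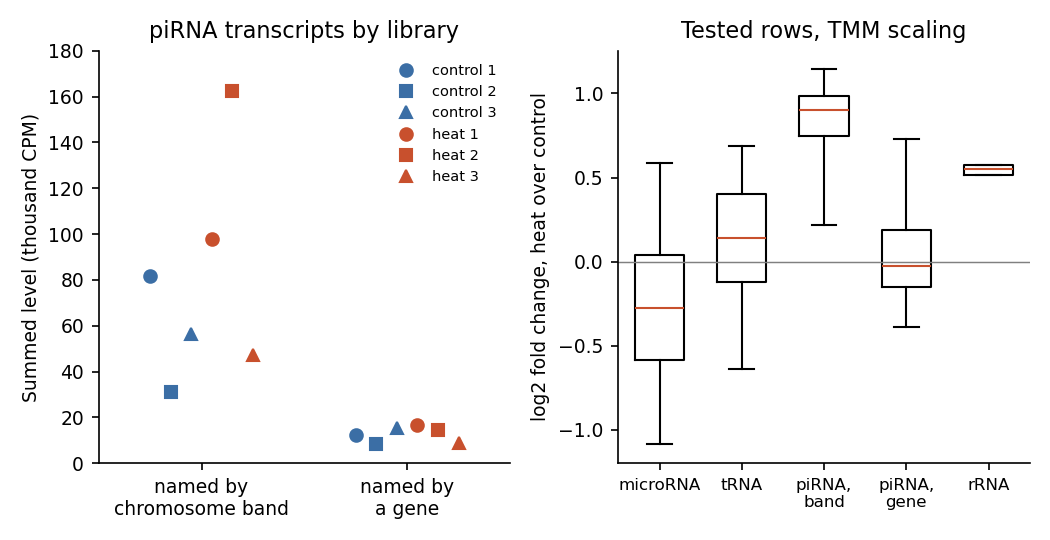
Left, summed level in CPM of band-named and gene-named piRNA rows in each library; right, log2 fold changes (heat over control, TMM scale) of the tested rows by class, with the box at the quartiles, the line at the median and whiskers at the 5th and 95th percentiles. Band-named rows range from 30949.6 CPM in control 2 to 162350.0 CPM in heat 2 and have a median log2 fold change of 0.90, beside -0.02 for gene-named rows.

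The 5 rRNA rows were higher in heat by fitted value, and 3 of them without overlap. The row of 28S stood at 89808, 96672 and 99333 CPM in control and 104708, 111411 and 193357 CPM in heat, with heat 3 far above the other libraries (log2 fold change 0.65, SE 0.54, adjusted p = 0.738). The row of 45S, the precursor that contains 28S, 18S and 5.8S, was at 120558, 130563 and 135345 CPM in control and 142736, 138536 and 247463 CPM in heat (log2 fold change 0.58, SE 0.54). The row of 5S, transcribed separately from the others, was at 12859.5, 7991 and 10509 CPM in control and 14716, 16117 and 13005 CPM in heat, and heat 3 was the lowest of its heat libraries (log2 fold change 0.55, SE 0.48).

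The rows of 18S and 5.8S overlapped (log2 fold change 0.52, SE 0.53, and 0.20, SE 0.51). Without heat 3 the log2 fold changes of 45S, 28S, 18S and 5.8S were -0.18, -0.11, -0.28 and -0.40. The ratio of 45S to the sum of 28S, 18S and 5.8S was 1.08, 1.07 and 1.07 in control and 1.06, 1.04 and 1.04 in heat, so the 45S row held about as many counts as the products it contains. With the 45S row left out of the totals, the mean share of tRNA was 12.9 percentage points lower in heat and that of rRNA 7.71 points higher, both again without overlap.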

How the data were processed

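The authors deposited raw read counts per small RNA row for the sperm libraries. The submitters' processing notes list mm10, Trimmomatic, RSEM and Bowtie2 for the series as a whole, with no roles. The rule for reads that match several copies is not given in these sources. Groups come from the GEO labels. The 6 libraries held 6429221 to 9936108 counts, whose number sets the counting error.

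The main test was edgeR's quasi-likelihood test (version 4.0.16, R 4.3.3; TMM scaling, default filter, no covariate), two-sided and with Benjamini-Hochberg adjustment over all tested rows at a threshold of 0.05. An SE is the absolute log2 fold change divided by the root of F. The same test was run on counts summed by tRNA anticodon, microRNA name without copy number and piRNA locus. CPM are counts per 1000000 of all counts in a library and are not TMM-scaled. Class and anticodon shares were compared with exact permutation tests (scipy 1.17.1). Intervals are 95% Wilson intervals and reflect counting error alone. Alternatives were DESeq2 1.42.0, limma-voom 3.58.1, other scalings and filters, each class fitted alone, a replicate block and each library left out; the fit was tested on simulated data. With 3 libraries a group, p-values judge the difference between the groups against the spread between these libraries.

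Rows named are the 10 most abundant microRNAs, the 4 smallest p in each direction per class, the 4 most abundant piRNA loci, all rRNA rows, anticodon groups with at least 1% of tRNA counts, the 5 summed groups with the smallest p each way and up to 3 rows per list described. Further rows were named after their values were seen: relatives of named microRNAs, further marker rows, further GlyGCC, GlyCCC, LysCTT and ValCAC copies. The comparison, lists and rows were chosen with earlier results of these data known. Of 1123 microRNA rows, 976 matched a RefSeq symbol (GRCm38.p6), which gave sequences and coordinates; 26 of 31 mature sequences looked for were found.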

Additional observations from a re-analysis of the deposited data

How the results depend on the processing

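The number of rows called was 0 with edgeR, 3 with scaling by library total and 5 under a stricter filter of at least 100 counts in at least 3 libraries. It ran from 0 to 12 when 1 library was left out (12 without heat 1, 11 without heat 3, 0 without any other), and for summed groups from 0 to 3 (3 without heat 1). It was 0 with DESeq2, limma-voom, size factors of the DESeq2 kind, rRNA rows left out, no filter and each class fitted alone. The rows called without heat 1 or heat 3 include chr3.trna287-GlyCCC, chr3.trna755-GlyCCC and 14-qA3-284.1; leaving a library out leaves a group of 2, and the cause was not tested. Libraries with the same replicate number did not deviate together (Pearson's r across rows of -0.13, -0.47 and 0.04), so the numbers were not used to pair them; with the replicate block 0 rows were called, with 24 higher and 17 lower at an unadjusted p of 0.05. When 1 library was left out, the share difference (heat minus control, percentage points) ran from -16.7 to -9.74 for tRNA, 3.08 to 13.6 for rRNA, -3.33 to 1.37 for microRNA and 1.68 to 7.75 for piRNA, and with rRNA left out of the total it was 1.19 for microRNA. Within tRNA counts it ran from -2.15 to 0.46 for GlyGCC, -2.79 to 0.54 for ValCAC, -1.59 to 1.06 for GluCTC, -1.14 to 0.53 for ValAAC, 0.23 to 0.30 for GlyCCC, 0.28 to 0.99 for GluTTC and -0.39 to -0.087 for LysCTT. The GlyCCC range includes the variable copies chr3.trna287-GlyCCC and chr3.trna755-GlyCCC. As a share of all counts the difference was -1.58 for GluCTC and -0.56 for GlyCCC. Of the named rows and groups, Mir10a and Mir10b changed sign with microRNA rows alone (0.30 and 0.26), and with 1 library left out they ran from -0.33 to 0.23 and from -0.41 to 0.21. Under the same left-out libraries Mir3963 ran from -0.96 (without heat 1) to 2.06. The rRNA rows were lowest without heat 3, and ran from -0.18 to 0.94 for 45S, -0.11 to 1.03 for 28S, -0.28 to 0.83 for 18S and -0.40 to 0.55 for 5.8S. Of 604 values for 52 named rows and groups, 574 kept their direction and side of the threshold, 17 passed it and 13 changed sign. The piRNA rows higher in heat at an unadjusted p of 0.05 numbered 191 without heat 1, 178 without heat 3, 43, 6 and 15 without controls 1, 2 and 3, and 2 without heat 2. Depth limits the rarest rows, such as Mir6931, which had 4 to 41 counts in a library.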
